A study of Mus musculus with 7 samples.

Results

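The NRF2 antioxidant and glutathione genes examined here are *Nfe2l2*, *Keap1*, *Nqo1*, *Gclc*, *Gclm*, *Slc7a11*, *Txnrd1*, *Srxn1*, *Gpx4* and *Sod2*. They were taken by name, 10 of the 21965 genes counted, with earlier results of these data known, and no cutoff on a measured value defined the group. Expression was measured by RNASeq in the contused mouse spinal cord at 3 days post injury (dpi 3). The injury was a moderate contusion at T9 with a force of 50 kdyn in mice of 8 to 10 weeks, and the tissue was the 5 mm segment around the epicenter. One group was labelled *Bmal1*-/- (*Arntl* tm1Bra, a germline knockout present in every cell, labelled B6.129-Arntltm1Bra/J C57BL/6, with a C57Bl/6J background in the study's methods, and bred from heterozygous parents) and had 2 females and 1 male. The other was C57BL/6 WT (C57Bl/6J in the study's methods) with 2 females and 2 males, which per the study's methods were mostly bought animals, with 1 littermate of the knockouts among them. Each mouse gave 1 library, and all 7 mice were injured, so both groups carry the injury and its surgery and the comparison is between genotypes after injury only.

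NRF2, the product of *Nfe2l2*, is a transcription factor that KEAP1 holds in the cytoplasm and sends to degradation until oxidants or electrophiles modify KEAP1. Free NRF2 binds antioxidant response elements together with a small MAF protein and raises genes that make glutathione, reduce thioredoxin and quinones, and clear heme. In the injured cord, blood products, iron and activated myeloid cells are known sources of oxidants, and glutathione with GPX4 protects membranes from the lipid peroxidation of ferroptosis. BMAL1, the product of *Arntl*, is the clock transcription factor that binds E-boxes with CLOCK or NPAS2.

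The libraries held 38529644 to 44096737 counts, and 15743 genes passed edgeR's filter on low counts and were tested. Levels are given as CPM, the count scaled to the size of the library with TMM factors, and the test is edgeR's quasi-likelihood test on genotype with Benjamini-Hochberg adjustment over all tested genes and a threshold of 0.05 (a gene past it is called). The targeted gene *Arntl* (ENSMUSG00000055116) went against its label, with 22.5 to 24.2 CPM in the libraries labelled *Bmal1*-/- and 11.9 to 15.3 CPM in WT. An antisense gene overlaps 33 of its 7523 exon bases. The reads were counted per whole gene, so this count does not tell an intact transcript from a disrupted one. Labels are therefore used as given. Of the 13 cell type marker lists checked, those of oligodendrocytes and astrocytes had the largest summed levels, and no marker of any list was at 0 in all libraries. Among WT mice, replicate 3 had the lowest summed neuron markers of the 7 libraries and the highest summed macrophage markers. WT mice also differed on the first principal component, the axis of largest variation among the most variable genes. The female replicates 1 and 2 stood at 29.4 and 29.3 on it, and the male replicates 3 and 4 at 7.9 and 1.97. This split by sex was not tested.

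The promoters of the members were read from RefSeq windows of 250 bases before to 50 after each start (GRCm38.p6). A window was found for 9 of the 10 genes, 14 windows in all, and *Gclc* had none in the table. The core of the antioxidant response element, TGACNNNGC on either strand, was present in 12.4% of all 32851 windows. It occurred in 1 window each of *Nfe2l2*, *Gclm*, *Txnrd1* (1 of its 3 windows) and *Srxn1*. The E-box CACGTG was in 7.15% of all windows and in none of those of the members. *Slc7a11* had no antioxidant core within these bases. It held the amino acid response element TGATGCAA on both strands, a letter sequence that was searched only after its window and its expression had been seen. That element was in 0.895% of all windows, and 2 windows held it 2 or more times. Some genes outside the members were read in the same way. *Phgdh*, which was also called lower, held an antioxidant core 53 bases before its start and no amino acid response element. *Slc3a2*, *Gstt1* and *Gstk1* held neither. The matches of the members are shown 5′ to 3′ on the strand of the gene, with the matched letters in capitals. A match is a description of letters and not of binding.
Nfe2l2 (chr2:75704885-75704913, minus strand, 240 bases before the start): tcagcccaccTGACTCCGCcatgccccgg
Gclm (chr3:122245413-122245441, plus strand, 134 bases before): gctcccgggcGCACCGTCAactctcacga
Txnrd1 (chr10:82859104-82859132, plus strand, 92 bases before): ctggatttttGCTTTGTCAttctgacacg
Srxn1 (chr2:152105542-152105570, plus strand, 28 bases after): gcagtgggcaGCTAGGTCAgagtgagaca
Slc7a11 (chr3:50443643-50443689, minus strand, 66 bases before): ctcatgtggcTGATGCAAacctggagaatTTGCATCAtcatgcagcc

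All 10 members passed the filter, with 372 to 13959 counts per library. At dpi 3, 1 of the 10 was called lower in the libraries labelled *Bmal1*-/-, and none was called higher. The called gene was *Slc7a11*, the cystine importer. Over all 15743 genes tested, 0.915% were called lower and 0.654% higher. The other 9 did not pass, and 7 of the 10 differed by less than 0.2 on the log2 scale in either direction. *Slc7a11* and *Nqo1* had groups that did not overlap, both lower in the libraries labelled *Bmal1*-/-, where 13.5% of all tested genes were separated in that direction and 13.4% in the other. The median log2 fold change was -0.08 for the members and -0.0057 for all genes tested. Lower genes made up 58.3% of all calls, and 43.3% after correction for GC content and transcript length in each library.

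**Figure D1:**
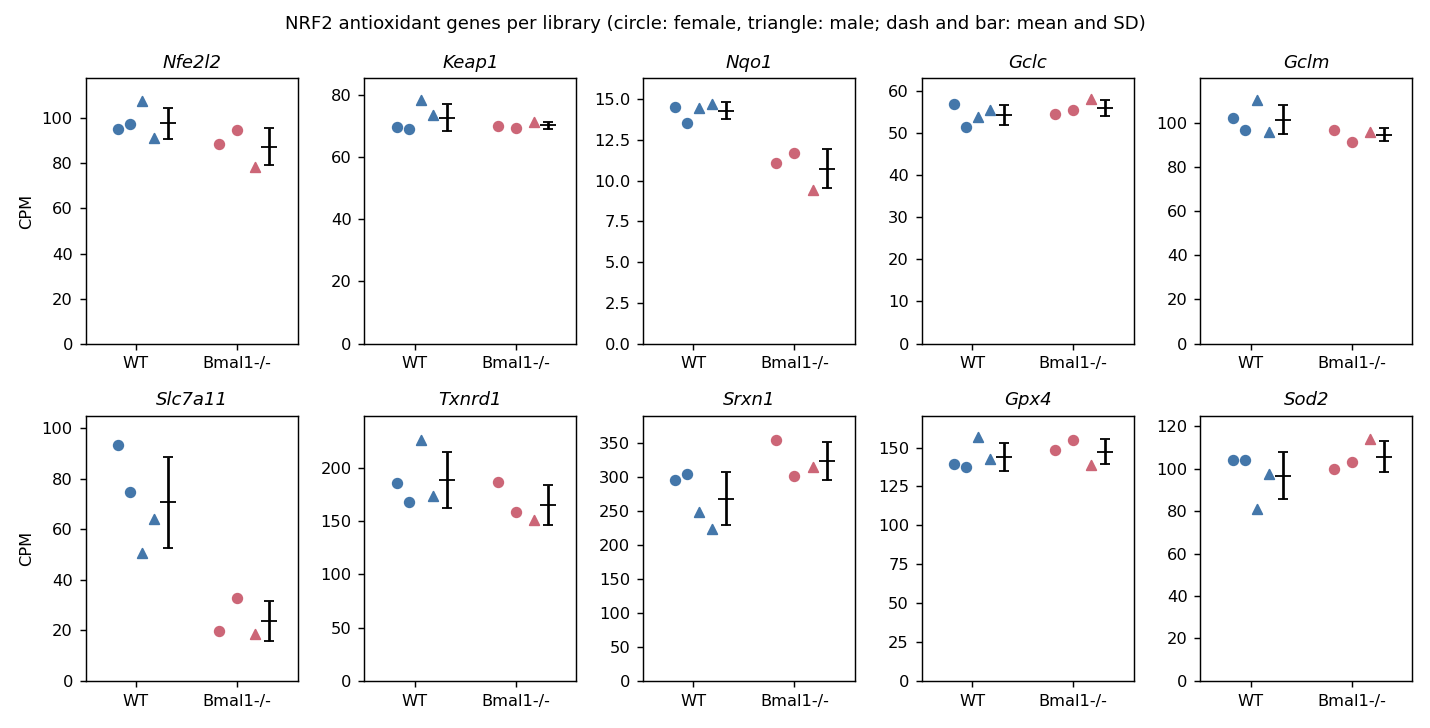
Level of each member in each library (vertical axes in CPM, each starting at 0), with WT in blue, libraries labelled Bmal1-/- in red, circles for females, triangles for males, and the mean with SD beside each group. Slc7a11 (18.6 to 32.8 against 50.8 to 93.3 CPM) and Nqo1 (9.44 to 11.7 against 13.5 to 14.7 CPM) are the members whose groups do not overlap.

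Within WT cord, levels were set side by side per kilobase of exon, since longer transcripts gather more reads. The length was that of all annotated exons of a gene merged, which can exceed the length of the transcripts expressed. *Srxn1*, which encodes the enzyme that repairs overoxidized peroxiredoxins, was highest at 95.1 ± 13.8 CPM per kilobase (SD, n = 4), and its range overlapped that of *Gpx4* at 83.5 ± 5.10. *Txnrd1* at 26.6 ± 3.74 and *Nfe2l2* at 25.8 ± 1.83 came next and did not separate from each other. *Gclm*, *Keap1* and *Gclc* followed at 16.1 ± 1.05, 15.5 ± 0.924 and 14.4 ± 0.619, where each neighbour overlapped the next. *Sod2* at 9.67 ± 1.09 and *Nqo1* at 9.20 ± 0.326 also overlapped. *Slc7a11* was lowest at 5.08 ± 1.29 CPM per kilobase, below every value of *Nqo1*. In the libraries labelled *Bmal1*-/- it stood at 1.71 ± 0.568 (SD, n = 3). The member lowest per kilobase of merged exon was thus the one with a called difference. In CPM without this scaling, its WT mean of 70.7 was above those of *Nqo1* (14.3) and *Gclc* (54.4). *Slc7a11* also had the widest relative spread of the members among WT mice, a coefficient of variation of 25.4%.

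*Slc7a11* (ENSMUSG00000027737, GRCm38 chr3:49892526-50443614, minus strand) encodes xCT, which carries cystine into the cell in exchange for glutamate and so supplies the cysteine of glutathione. Replicates 1 to 3 labelled *Bmal1*-/- had 19.8, 32.8 and 18.6 CPM. WT replicates 1 to 4 had 93.3, 74.8, 50.8 and 64.0 CPM. The highest knockout-labelled value was below the lowest WT value. The means were 23.7 ± 7.91 (SD, n = 3) and 70.7 ± 18.0 CPM (SD, n = 4), a 2.98-fold lower level. On the log2 scale the difference was -1.57 (standard error 0.27, 95% interval -2.21 to -0.94, adjusted p = 0.0419 by edgeR's quasi-likelihood test), which is a change of -66.4% with an interval from -78.4% to -47.7%. The adjusted p lay close to the threshold, and the call was lost when *Bmal1*-/- replicate 1 or 3 or WT replicate 1, 2 or 4 was left out, with adjusted p from 0.0838 to 0.193 and log2 fold changes from -1.62 to -1.41. It held without *Bmal1*-/- replicate 2 (adjusted p = 0.0297) and without WT replicate 3 (adjusted p = 0.0153). The gap was of similar size in both sexes. In females the means were 26.3 and 84.0 CPM (n = 2 and 2, 3.19-fold), and in males they were 18.6 and 57.4 CPM (n = 1 and 2, 3.08-fold), which are given without a test.

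The tissue is bulk, so fewer cells of a type and less RNA per cell cannot be told apart. Fibroblast markers moved with *Slc7a11* in part of the libraries. Their summed level was 548, 2558 and 456 CPM in the libraries labelled *Bmal1*-/- and 1352 to 2106 CPM in WT, and of these 10 genes 1 was called lower, 7 had negative and 3 positive fold changes. Replicate 2 of the libraries labelled *Bmal1*-/- had the highest fibroblast sum of the 7, and its *Slc7a11* level of 32.8 CPM was still below all 4 WT values. Macrophage markers summed to 3059 to 4248 CPM against 3445 to 6561 CPM, with 10 of 12 negative and none called. Astrocyte markers come from a cell type known to use xCT. Their sum was 16408 to 18891 CPM against 11084 to 15620 CPM, the opposite side from *Slc7a11*, with none of 10 called. Their mean log2 CPM overlapped, at 8.90 to 8.92 against 8.38 to 8.98, and 4 fold changes were negative and 6 positive. Neuron markers were also on the opposite side, at 7096 to 8592 CPM against 2939 to 6853 CPM, with all 12 fold changes positive and none called. Skeletal muscle markers summed to 6.68 to 8.88 CPM against 58.6 to 75.6 CPM, with 8 of 10 called lower. Red cell markers summed to 27.1 to 62.7 CPM against 154 to 466 CPM, with 1 of 6 called lower. Endothelial markers summed to 499 to 566 CPM against 577 to 904 CPM (1 of 10 called lower), and pericyte markers to 343 to 442 CPM against 458 to 542 CPM (none of 8 called). The mean log2 CPM of the pericyte markers overlapped, at 4.57 to 4.92 against 4.82 to 5.09. OPC markers summed to 1050 to 1137 CPM against 889 to 1011 CPM, with none of 8 called. Schwann cell markers overlapped by their sum (816 to 901 against 856 to 1176 CPM), most of which came from *Mal*, a gene that oligodendrocytes also express. Their mean log2 CPM over the 5 tested genes was separate, at 3.16, 4.28 and 3.14 under the label *Bmal1*-/- and 6.17, 6.65, 5.31 and 4.82 in WT, with 4 of 5 fold changes negative, a median of -1.60 and none called. In the group labelled *Bmal1*-/-, replicate 2 had the highest value of this mean, of the fibroblast sum and of *Slc7a11*. The sums for microglia, neutrophils and oligodendrocytes overlapped between the groups. The part of these cell types in the *Slc7a11* difference was not tested.

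**Figure D2:**
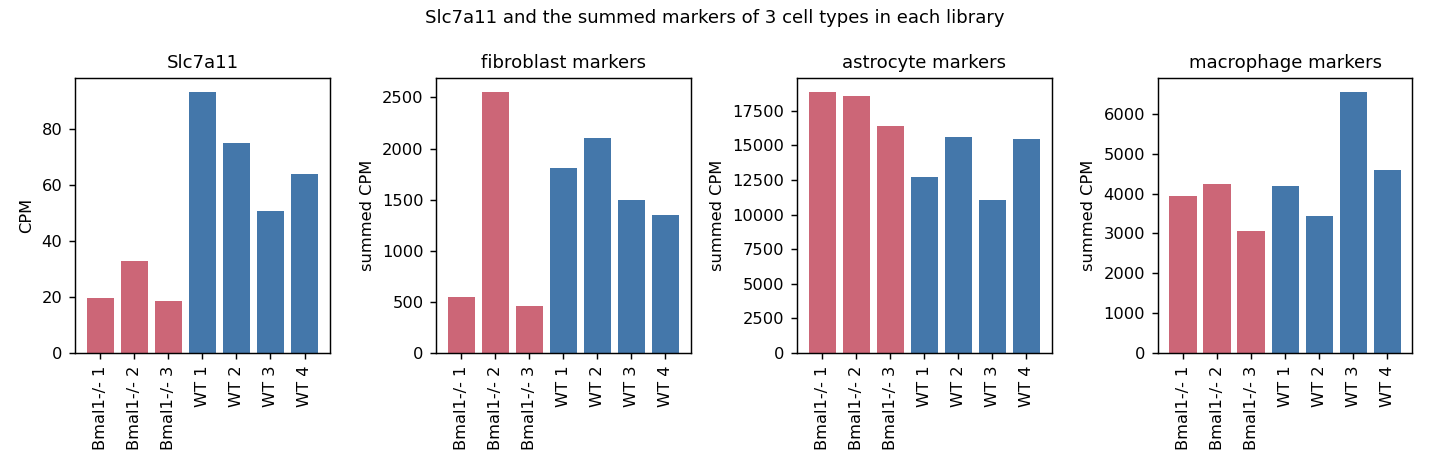
Level of Slc7a11 (left panel, CPM) and the summed levels of fibroblast, astrocyte and macrophage markers (other panels, summed CPM) in each of the 7 libraries, with bars in red for libraries labelled Bmal1-/- and in blue for WT. Replicate 2 of the libraries labelled Bmal1-/- has the highest fibroblast sum of all 7 (2558 CPM) and the highest Slc7a11 level of its group (32.8 CPM), which is below the 4 WT values.

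The xCT protein works as a dimer with the heavy chain 4F2hc, encoded by *Slc3a2*. *Slc3a2* had 203, 200.3 and 193 CPM in the libraries labelled *Bmal1*-/- and 221, 205, 244 and 234 CPM in WT. It was not called (log2 fold change -0.19, edgeR adjusted p = 0.229), although its groups did not overlap. Within a library, the ratio of *Slc7a11* to *Slc3a2* counts was 0.0977, 0.164 and 0.0964 in the libraries labelled *Bmal1*-/- and 0.422, 0.365, 0.208 and 0.274 in WT. *Slc7a11* RNA was thus scarcer relative to *Slc3a2* RNA in each knockout-labelled library than in any WT library. The ratio is of RNA in bulk tissue and does not measure the protein dimer. The log2 ratio differed by -1.41 (-3.11 ± 0.44, n = 3, against -1.71 ± 0.45, n = 4, SD). This is the most extreme split of the 7 libraries, with a two-sided exact permutation p = 0.0286, the smallest that 3 against 4 allows, and 0.0857 after adjustment over the 3 ratios examined. The adjusted value did not pass 0.05.

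*Gclc* and *Gclm* encode the catalytic and modifier subunits of glutamate-cysteine ligase, the rate-limiting enzyme of glutathione synthesis. *Gclc* (ENSMUSG00000032350, chr9:77754535-77794485) had 54.4, 55.5 and 58.0 CPM in the libraries labelled *Bmal1*-/- and 56.9, 51.4, 53.8 and 55.4 CPM in WT. *Gclm* (ENSMUSG00000028124, chr3:122245557-122270732) had 96.6, 91.2 and 95.7 CPM against 102, 96.8, 110.1 and 95.7 CPM. The groups overlapped for both. The log2 fold change of *Gclc* was 0.04 (95% interval -0.09 to 0.18, edgeR adjusted p = 0.661), and that of *Gclm* was -0.10 (-0.26 to 0.06, adjusted p = 0.383). Both intervals lay above that of *Slc7a11*. The log2 ratio of *Gclm* to *Gclc* was 0.75 ± 0.06 (SD, n = 3) against 0.89 ± 0.11 (SD, n = 4), a difference of -0.14 (exact permutation p = 0.114, adjusted 0.171). Predicted genes overlap *Gclm* on both strands, so reads from them could be counted with it or lost.

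The regulator and its inhibitor differed little between the groups. *Nfe2l2* (ENSMUSG00000015839, chr2:75675513-75704641) had 88.8, 94.8 and 78.6 CPM in the libraries labelled *Bmal1*-/- and 95.2, 97.4, 108 and 91.3 CPM in WT. Replicate 2 of the libraries labelled *Bmal1*-/- lay inside the WT range. On the log2 scale it differed by -0.16 (standard error 0.086, 95% interval -0.36 to 0.04, edgeR adjusted p = 0.304). *Keap1* (ENSMUSG00000003308, chr9:21229730-21239361) had 69.9, 69.2 and 71.4 CPM against 69.7, 69.0, 78.5 and 73.6 CPM. All 3 knockout-labelled values lay within the WT range, with a log2 fold change of -0.05 (-0.19 to 0.09, adjusted p = 0.610). The log2 ratio of *Keap1* to *Nfe2l2* was -0.31 ± 0.16 against -0.43 ± 0.08 (SD, n = 3 and 4, exact permutation p = 0.286, also after adjustment). NRF2 is controlled mainly through the stability of its protein, which RNA counts do not measure. A gene on the opposite strand overlaps *Keap1*.

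*Nqo1* (ENSMUSG00000003849, chr8:107388225-107403206), the quinone reductase often used as a readout of NRF2 activity, was the other member with separate groups. It had 11.1, 11.7 and 9.44 CPM in the libraries labelled *Bmal1*-/- and 14.5, 13.5, 14.5 and 14.7 CPM in WT. The WT values were tight, with 14.3 ± 0.506 CPM (SD, n = 4) against 10.7 ± 1.17 CPM (SD, n = 3). Its log2 fold change reached -0.41 (standard error 0.096, 95% interval -0.64 to -0.19). The adjusted p was 0.0866 by edgeR's quasi-likelihood test, so *Nqo1* was not called. With DESeq2's default test its adjusted p was 0.00298. It was the least counted member, at 372 to 582 reads per library.

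The thioredoxin arm was represented by *Txnrd1*, the cytosolic thioredoxin reductase, and by *Srxn1*. *Txnrd1* (ENSMUSG00000020250, chr10:82833951-82897712) had 187, 159 and 151 CPM in the libraries labelled *Bmal1*-/- and 186, 168, 227 and 173 CPM in WT. WT replicate 3 was the highest of the 7, and the log2 fold change was -0.19 (-0.49 to 0.10, edgeR adjusted p = 0.380). *Srxn1* (ENSMUSG00000032802, chr2:152105516-152111376) had 355, 301 and 314 CPM against 296, 305, 248 and 223 CPM. It had the largest positive difference of the members, with overlap between only replicate 2 of each group, and a log2 fold change of 0.27 (standard error 0.13, -0.03 to 0.57, adjusted p = 0.266). In females its means were 328 and 301 CPM and in males 314 and 236 CPM. The male WT libraries were lower than the female ones, and with 2 mice each this difference was not tested.

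*Gpx4* encodes the glutathione peroxidase that reduces lipid peroxides in membranes, and *Sod2* the mitochondrial superoxide dismutase. *Gpx4* (ENSMUSG00000075706, chr10:80047166-80056439) had 149, 155 and 139 CPM in the libraries labelled *Bmal1*-/- and 139, 137, 157 and 142 CPM in WT. Its log2 fold change was 0.03 (-0.13 to 0.20, edgeR adjusted p = 0.783), and it was -0.00072 without *Bmal1*-/- replicate 2. *Sod2* (ENSMUSG00000006818, chr17:13006846-13040063) had 99.99, 103 and 114 CPM against 104, 104, 81.1 and 97.6 CPM. WT replicate 3 was the lowest of the 7, and the log2 fold change was 0.13 (-0.11 to 0.36, adjusted p = 0.453). For both genes the groups overlapped and the interval of the difference included 0.

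**Figure D3:**
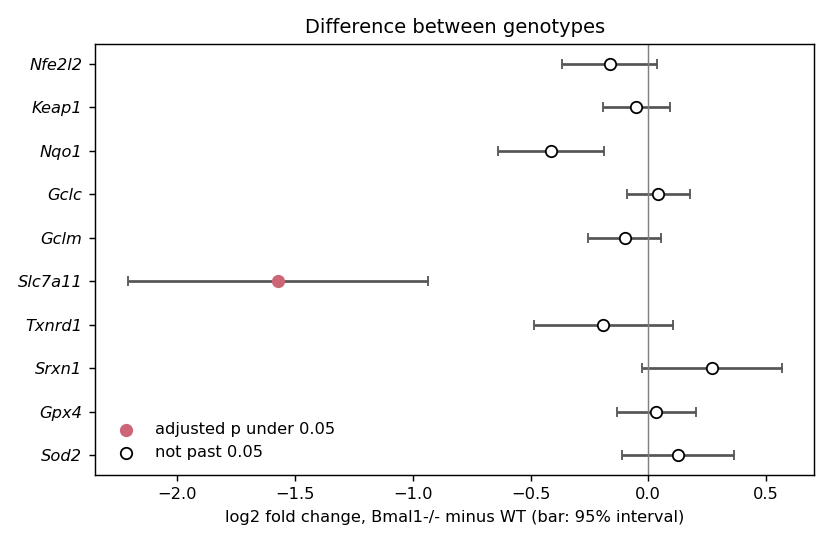
Log2 fold change of each member (libraries labelled Bmal1-/- minus WT, horizontal axis) with its 95% interval from edgeR's quasi-likelihood test, where the filled point is the gene with an adjusted p under 0.05 and open points are the others. Slc7a11 stands at -1.57 and the next lowest, Nqo1, at -0.41, while Srxn1 is highest at 0.27.

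The members' neighbours in the pathway were read from 10 lists of 105 further genes, all of which were tested. Of these, 3 were called lower and 1 higher (3.81% together), where 0.915% of all genes tested were called lower and 0.654% higher. Fold changes were negative for 65 and positive for 40. The median log2 fold change was -0.08, against -0.0057 for all genes tested. The groups did not overlap for 19 genes that were lower (18.1%) and 13 that were higher (12.4%), against 13.5% and 13.4% of all genes tested. The calls came from the glutathione transferases and from 1 gene, *Phgdh*, in the list of the ATF4 amino acid response. The other 8 lists had none.

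The 17 glutathione peroxidases and transferases had 2 genes called lower and 1 higher, where 0.915% and 0.654% of all genes tested were called in those directions. *Gstt1* (ENSMUSG00000001663), a transferase of the theta class, had 10.7, 9.26 and 9.97 CPM in the libraries labelled *Bmal1*-/- and 23.5, 20.6, 18.0 and 19.5 CPM in WT. It fell by 1.03 on the log2 scale (standard error 0.11, edgeR adjusted p = 0.00764). *Gstk1* (ENSMUSG00000029864), the mitochondrial and peroxisomal kappa transferase, went the other way, with 20.9, 22.2 and 21.8 CPM against 15.0, 15.6, 15.2 and 15.2 CPM. It rose by 0.50 (standard error 0.063, adjusted p = 0.0141). *Gsta4* (ENSMUSG00000032348), which conjugates the lipid peroxidation product 4-hydroxynonenal, had 40.7, 38.4 and 39.9 CPM against 52.2, 48.6, 48.5 and 51.0 CPM, and fell by 0.34 (standard error 0.056, adjusted p = 0.0380). Called genes of this list thus changed in opposite directions. *Gstt1* kept its call with each library left out, *Gstk1* lost it without any 1 of the libraries labelled *Bmal1*-/- or WT replicate 1 (adjusted p = 0.0530 to 0.0786), and *Gsta4* lost it without any library but WT replicate 3 (adjusted p = 0.0638 to 0.170). *Gsta4* also lost it with sex as a covariate (adjusted p = 0.0812) and after correction for GC content and length (-0.18, adjusted p = 0.259). Transferase genes have close paralogs among which the counting can lose reads. Of those not called, the secreted peroxidase *Gpx3* had 49.8, 60.5 and 45.0 CPM against 107, 152, 125 and 78.8 CPM (log2 fold change -1.16, adjusted p = 0.0575), and *Gstm1* had the highest fold change among genes with separate groups (0.32, adjusted p = 0.136).

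The 11 genes of the ATF4 amino acid response had 1 called gene, *Phgdh* (ENSMUSG00000053398), the first enzyme of serine synthesis. It had 59.7, 61.5 and 63.3 CPM in the libraries labelled *Bmal1*-/- and 82.4, 85.4, 75.0 and 90.1 CPM in WT. It fell by 0.44 on the log2 scale (standard error 0.072, edgeR adjusted p = 0.0369), and it lost the call without any library but WT replicate 3 (adjusted p = 0.0771 to 0.191), with sex as a covariate (adjusted p = 0.0782) and after correction for GC content and length (-0.33, adjusted p = 0.0906). *Atf4* itself was not called, at 136 ± 9.26 CPM (SD, n = 3) against 158 ± 28.5 CPM (SD, n = 4) with a log2 fold change of -0.22 (adjusted p = 0.366). *Slc7a5*, the large neutral amino acid transporter that also pairs with 4F2hc, had a log2 fold change of -0.27 (adjusted p = 0.189) with separate groups. Of the 11 genes, 7 had negative and 4 positive fold changes, with a list median of -0.05. *Trib3* was lowest (-0.74, edgeR adjusted p = 0.231) and *Asns* highest (0.33, adjusted p = 0.356), both with overlapping groups.

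None of 11 other NRF2 targets was called, and 10 of the 11 had a negative fold change with a list median of -0.15. The heme oxygenase gene *Hmox1* was the lowest, with values of 544, 352 and 489 CPM under the label *Bmal1*-/- and 982, 625, 2142 and 941 CPM in WT. All 4 WT values were above the others, but they spread widely (1173 ± 666 CPM, SD, n = 4), and the log2 fold change was -1.34 (standard error 0.42, edgeR adjusted p = 0.157). WT replicate 3, which had the highest *Hmox1*, also had the highest summed red cell markers (466 CPM) and macrophage markers (6561 CPM), and the part of those cells was not tested. Without it the log2 fold change was -0.88 (adjusted p = 0.0730). *Cbr1*, a carbonyl reductase, was the member of this list with a positive fold change (0.28, adjusted p = 0.234).

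**Figure D4:**
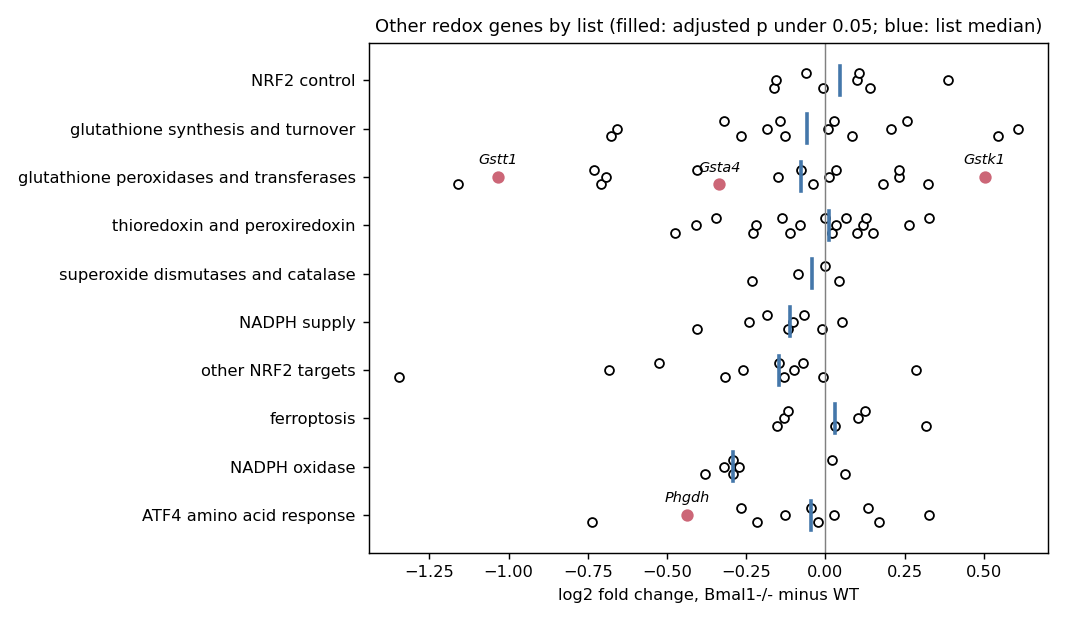
Log2 fold change (libraries labelled Bmal1-/- minus WT, horizontal axis) of each of the 105 further genes, 1 row per list, where filled named points have an adjusted p under 0.05 by edgeR's quasi-likelihood test, open points do not, and the blue line is the list median. Gstt1 and Gstk1 lie on opposite sides of 0 within the same list, at -1.03 and 0.50, and list medians run from -0.29 for NADPH oxidase to 0.05 for NRF2 control.

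In the remaining 7 lists no gene was called. Of the 14 genes of glutathione synthesis and turnover, 5 had an unadjusted p under 0.05, where 20.9% of all genes tested did, with the γ-glutamyl transferase family gene *Ggt5* lowest (log2 fold change -0.68, edgeR adjusted p = 0.0786) and *Cbs*, the transsulfuration enzyme that leads to cysteine, highest (0.61, adjusted p = 0.172) among genes with separate groups. Of 18 thioredoxin and peroxiredoxin genes, 5 reached an unadjusted p under 0.05. Among those with separate groups, *Prdx4*, the peroxiredoxin of the endoplasmic reticulum, was lowest (-0.48, adjusted p = 0.0654) and *Txnrd3* highest (0.26, adjusted p = 0.190). The NRF2 control list of 8 held the small MAF partners and the ubiquitin ligase of KEAP1. In it, 2 reached an unadjusted p under 0.05, *Mafg* with separate groups (-0.16, adjusted p = 0.193) and *Mafk* with overlapping groups (0.39, adjusted p = 0.214). Of 8 genes that supply NADPH, *Pgd* of the pentose phosphate pathway reached it (-0.41, adjusted p = 0.229). Of 7 ferroptosis genes, the transferrin receptor gene *Tfrc* reached it (0.32, adjusted p = 0.115). None of 4 superoxide dismutase and catalase genes and none of 7 NADPH oxidase genes did, although 5 of the latter 7 were negative with a median of -0.29.

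Over the 7 libraries, the gene whose profile lay nearest to that of *Slc7a11*, among 14358 tested genes of at least 1 CPM on average, was *Moxd1*, with a root mean square distance of 0.131 on the centred log2 CPM scale. Its mean level was 5.86 ± 1.55 CPM (SD, n = 3) under the label *Bmal1*-/- and 17.9 ± 6.00 CPM (SD, n = 4) in WT. *Prss35* (distance 0.189), *Fmod* (0.249), *Sulf1* (0.282) and *Sult5a1* (0.297) followed. *Fmod*, which encodes the collagen-binding proteoglycan fibromodulin and is also in the fibroblast marker list, was the one of the 5 that was called (log2 fold change -1.88, edgeR adjusted p = 0.00456). This distance is taken over libraries of both genotypes, so it includes the genotype difference itself. The other members of the NRF2 group had smaller fold changes and so lay far from this profile by construction, which is no separate result. *Nqo1* was the nearest of them at 0.657 (rank 729 by distance), *Nfe2l2* followed at 0.781 (rank 2417), and *Srxn1* was farthest at 0.982.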

How the data were processed

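The deposited values are raw counts per gene without normalization. Per the study's methods the authors made stranded poly-A libraries, used Tophat2 for alignment to GRCm38 and HTSeq for counting. HTSeq 0.10.0 and FastQC 0.10.1 stand in the submitters' processing notes, and the annotation release and strand setting are not given in the sources used here. Of 21965 genes, 3039 had no count. After filterByExpr and TMM scaling, genotype was tested by edgeR's quasi-likelihood method (R 4.3.3 with edgeR 4.0.16 and limma 3.58.1), with Benjamini-Hochberg adjustment over 15743 genes. Ratios had 0.5 added to each count and exact two-sided permutation tests (scipy 1.17.1). The common dispersion was 0.0342, so spread between mice limits precision more than depth does. Sex came from the sample descriptions. Gene positions, exon lengths and overlaps came from GENCODE M21 and promoters from RefSeq. The fits were also run on simulated counts with known changes. The edgeR fit missed part of those changes, and the recovery it had to reach was lowered after its result was seen.

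The members and lists were chosen with earlier results of these data known. Named were all members, each list's called genes, each list's highest and lowest other gene with separate groups, *Arntl*, and the 5 profiles nearest to *Slc7a11*. *Slc3a2*, *Atf4*, *Trib3*, *Asns*, *Mafk* and the summed marker lists were also given. Alternatives were DESeq2 1.42.0, limma-voom, RLE and upper-quartile scaling, filters of 1 count in any library or a mean count of 10, a sex covariate, a replicate block, correction for GC content and length, and leaving out each library. For ratios they were 0 or 5 added counts. Plots used python 3.11.15 and matplotlib 3.10.9.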

Additional observations from a re-analysis of the deposited data

How the results depend on the processing

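Of the 10 members, 1 was called lower by edgeR, 2 by DESeq2's default test (*Slc7a11* and *Nqo1*), 0 with the replicate block and 0 to 1 with each library left out, and none was called higher in any setting. Of the 105 further pathway genes, the calls were 3 lower and 1 higher by edgeR and 10 and 7 by DESeq2. They were 1 and 1 with sex as a covariate, and 0 and 0 with the block. With each library left out they were 1 to 6 lower and 0 to 3 higher, the most without WT replicate 3. Calls over all tested genes shifted as well. DESeq2 called 922 of 16369 genes lower and 573 higher, where edgeR called 144 and 103 of 15743. Omitting WT replicate 3 raised the edgeR totals to 439 lower and 291 higher. Every other omission lowered both totals, for example to 27 and 30 for *Bmal1*-/- replicate 1. Calls of members and pathway genes were not tested against these totals. The log2 fold change of *Slc7a11* ran from -1.88 to -1.41 over all settings and kept its call except with the block (adjusted p = 0.219) and in 5 of the 7 fits that left out a library. The ratio of *Slc7a11* to *Slc3a2* ran from -1.66 to -1.25 on the log2 scale with each library left out, where 6 libraries allow no exact permutation p under 0.05. *Gpx4* ran from -0.00072 to 0.0769 with each library left out and changed sign without *Bmal1*-/- replicate 2. *Gstt1* lost its call only with the block (adjusted p = 0.173). Replicate numbers did not pair the mice: the correlations of same-numbered deviations were -0.174, 0.183 and -0.295, WT replicate 4 has no partner, and under the block no gene of 15743 was called by edgeR, with 1590 at an unadjusted p under 0.05. The causes of these differences between settings were not tested. Over all alternatives, values of single genes kept their direction and side of the threshold in 455 cases, gained a call in 20, lost it in 36 and reversed in 1.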
